A study of Homo sapiens with 6 samples.

Results

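The enzymes described here remove reactive aldehydes, ketones, quinones and electrophiles from cells, and their transcripts were measured in A-498 cells treated with zebularine. The group comprised every probe set on the array whose annotation gave exactly 1 symbol beginning with ALDH, AKR or GST, or the symbol NQO1, GCLC, GCLM, TXNRD1 or HMOX1, with ALDH1A1, ALDH1A2 and ALDH1A3 left out. This gave 43 of the 11963 genes with a probe set of their own, and 68 of 22277 probe sets: 28 probe sets of 14 aldehyde dehydrogenase genes, 13 of 8 aldo-keto reductase genes, 19 of 16 glutathione S-transferase genes and 8 of the 5 further genes. Zebularine, an analogue of cytidine, inhibits DNA methyltransferases, and A-498 cells are an established line grown out of a human kidney tumour (renal cell carcinoma). Of 6 Affymetrix arrays, 3 came from cultures kept with 1000 µM zebularine for 120 h and 3 from cultures kept without it for 120 h, numbered as biological replicates 1 to 3 in each group. Treated and untreated cells came from the same line and were grown in the same serum-containing medium and split during the treatment. All values therefore describe 1 cell line at 1 dose and 1 time.

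Aldehyde dehydrogenases oxidise aldehydes to carboxylic acids, aldo-keto reductases reduce aldehydes and ketones to alcohols, and glutathione S-transferases join glutathione to electrophiles. NQO1 reduces quinones, GCLC and GCLM are the catalytic and modifier subunits of the enzyme that limits glutathione synthesis, TXNRD1 keeps thioredoxin reduced and HMOX1 degrades haem. Many of these genes are activated by the transcription factor NRF2 (gene NFE2L2) through antioxidant response elements, short DNA motifs in their promoters and enhancers. KEAP1 marks NRF2 for degradation in unstressed cells.

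Promoter sequences are shown for GSTO1, AKR1C3, AKR1C4 and GSTP1. GSTO1 was called higher and AKR1C3 lower only in the fit with the replicate number as a block, described below. AKR1C4 is a neighbour of AKR1C3 in the same gene family, and the promoter of GSTP1 is known to be methylated in other tumours. Both AKR1C4 and GSTP1 were too dim to test. Each sequence is the 250 bases before the annotated start, from RefSeq on GRCh38.p14, 5′ to 3′. The capitals mark CpG dinucleotides, the sites of DNA methylation.
GSTO1, chr10:104254642-104254891, plus strand: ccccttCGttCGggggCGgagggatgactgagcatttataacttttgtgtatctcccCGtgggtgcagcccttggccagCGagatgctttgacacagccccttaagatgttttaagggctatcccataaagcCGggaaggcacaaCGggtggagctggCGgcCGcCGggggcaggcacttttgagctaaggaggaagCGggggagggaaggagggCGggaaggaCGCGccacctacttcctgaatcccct
AKR1C3, chr10:5094164-5094413, plus strand: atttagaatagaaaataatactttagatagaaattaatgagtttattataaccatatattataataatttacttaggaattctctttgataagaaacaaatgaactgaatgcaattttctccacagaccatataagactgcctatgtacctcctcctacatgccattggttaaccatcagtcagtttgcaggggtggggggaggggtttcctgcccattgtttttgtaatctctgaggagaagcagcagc
AKR1C4, chr10:5196587-5196836, plus strand: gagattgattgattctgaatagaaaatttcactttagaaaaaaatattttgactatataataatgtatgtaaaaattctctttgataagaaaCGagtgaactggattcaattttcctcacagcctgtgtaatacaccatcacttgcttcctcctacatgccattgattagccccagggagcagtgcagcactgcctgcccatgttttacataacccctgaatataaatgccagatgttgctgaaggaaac
GSTP1, chr11:67583562-67583811, plus strand: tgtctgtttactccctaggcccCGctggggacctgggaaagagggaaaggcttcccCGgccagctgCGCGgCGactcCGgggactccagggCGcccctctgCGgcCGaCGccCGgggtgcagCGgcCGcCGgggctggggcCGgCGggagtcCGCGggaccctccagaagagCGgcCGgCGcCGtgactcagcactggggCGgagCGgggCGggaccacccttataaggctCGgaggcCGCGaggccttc
The window of GSTO1 held 14 CpGs and that of GSTP1 28, while the window of AKR1C3 held 0 and that of AKR1C4 held 1. RefSeq gives AKR1C3 another start, and the window before that start also held 0 CpGs. None of the 5 windows of AKR1C genes held more than 2, against a median of 12.5 over 44 windows of member genes and 11 over 35116 windows of all genes. The core of the antioxidant response element, TGACNNNGC, was searched on both strands. GSTO1 held it at positions -226 and -161 and GSTP1 at -66 on the plus strand (-1 is the last base before the start), and the windows of AKR1C3 and AKR1C4 held no match. Of the 44 member windows, 10 held a match (22.7%), in the genes AKR7A2, GSTA4, GSTM1, GSTM5, GSTO1, GSTP1, GCLM and TXNRD1, against 10.9% of all 35116 windows. Both windows of AKR7A2, which are 2 of the 10, overlap almost completely. Such matches are a description of the letters and show no binding. Windows were found for 36 of the 43 genes. Over the 29 of these that were tested, the number of CpGs and the log2 difference after zebularine correlated at a Spearman's rho of -0.14 and a Pearson's r of -0.19. For a gene with several windows the highest number of CpGs was used. These genes share all 6 arrays, and the values are a description.

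The labelled cell type was checked against marker genes. Of 8 markers of kidney epithelium and renal cell carcinoma, VIM, KRT8, KRT18, PAX8 and PAX2 exceeded a signal of 78.5 on all 6 arrays. Below that level a probe set counted as dim. KRT19 exceeded it on 4 arrays, CDH16 on 2 and EPCAM on none. The summed markers of leukocytes ran from 74.2 to 142 on zebularine and 53.1 to 127 on untreated arrays. CD3D exceeded a signal of 78.5 on 1 array, and PTPRC, CD14 and LYZ on none. Endothelial markers summed to 147 to 191 on zebularine and 91.1 to 141 on untreated arrays, with CDH5 above that level on no array. VWF exceeded it on zebularine arrays 1 and 2, at 98.3 and 99.5, against 20.5 at most on untreated arrays. PECAM1 exceeded it on 1 array. Fibroblast markers summed to 369 to 663 on zebularine and 263 to 410.5 on untreated arrays, mostly COL1A1, with DCN and LUM above the level on no array. COL1A1 exceeded it on all 6 arrays and COL1A2 on 1. The part of these markers in the results below was not tested. Array medians lay between 118 and 141. Both arrays of replicate 3 reached lower maxima, 28721 with zebularine and 31176 untreated, against 66290 to 71174 on the other 4 arrays. Very bright probe sets were therefore set beside other bright probe sets. The ratio of 3′ to 5′ GAPDH signal, a sign of RNA integrity, was 1.34, 1.16 and 1.01 on zebularine arrays and 1.52, 1.19 and 1.07 on untreated arrays in replicates 1, 2 and 3. The same ratio for ACTB was 5.25, 2.06 and 1.49 on zebularine arrays and 3.10, 2.38 and 1.71 on untreated arrays. GAPDH was thus lower with zebularine in all 3 replicates, and ACTB higher in replicate 1 and lower in replicates 2 and 3. The part of these ratios in the results was likewise not tested.

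No member passed the test without regard to replicate number, and more members were lower than higher after zebularine. Probe sets were tested if they reached a signal of 78.5 on at least 3 of 6 arrays, which 50 of the 68 did, for 32 of 43 genes. Differences are zebularine minus untreated on the scale log2(signal + 16.34), which understates changes of dim probe sets. By limma with Benjamini-Hochberg adjustment (13548 probe sets), 0 of the 50 had an adjusted p under 0.05, against 0.620% of all tested probe sets, while unadjusted p values under 0.05 were reached by 2 probe sets with higher signals (4%, against 5.93% of all) and by 8 with lower ones (16%, against 6.64%). With the replicate number as a block, which takes out what both arrays of 1 replicate share, 2 of 50 were called (4%, against 4.23% of all), namely GSTO1, which rose (2%, against 1.91%), and AKR1C3, which fell (2%, against 2.32%). These shares of calls with the block are close to the background. At an unadjusted p under 0.05 with the block, 2 were higher (4%, against 9.57%) and 16 lower (32%, against 11.2%). The 50 tested probe sets had a mean difference below 0 in 39 cases (78%), while 50.8% of all tested probe sets did. Several of the 50 belong to the same gene or to genes close in sequence, so they are not independent. Counted over genes, with 1 probe set each, the mean was below 0 for 7 of 10 ALDH genes and 6 of 6 AKR genes. It was below 0 for 5 of 11 GST genes and 3 of the 5 further genes. In all 3 replicates 24 of the 50 (48%) were lower, against a background of 21.8%, and 3 (6%) were higher, against 20.9%. The zebularine signals all lay below the untreated signals for 7 (14%), against 8.88% of all, and all above them for 2 (4%), against 8.72%. The median difference was -0.33 over the 50 and -0.0094 over all tested probe sets, and over all 68 without the filter it was -0.27. One probe set, 203722_at of ALDH4A1, passed the filter through the untreated arrays alone and so had to differ. It is among the 39 with a mean difference below 0. Without it 23 probe sets were lower in all 3 replicates and 6 lay wholly below the untreated signals. In bulk RNA, fewer cells that express a gene and less RNA per cell cannot be told apart.

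**Figure D1:**
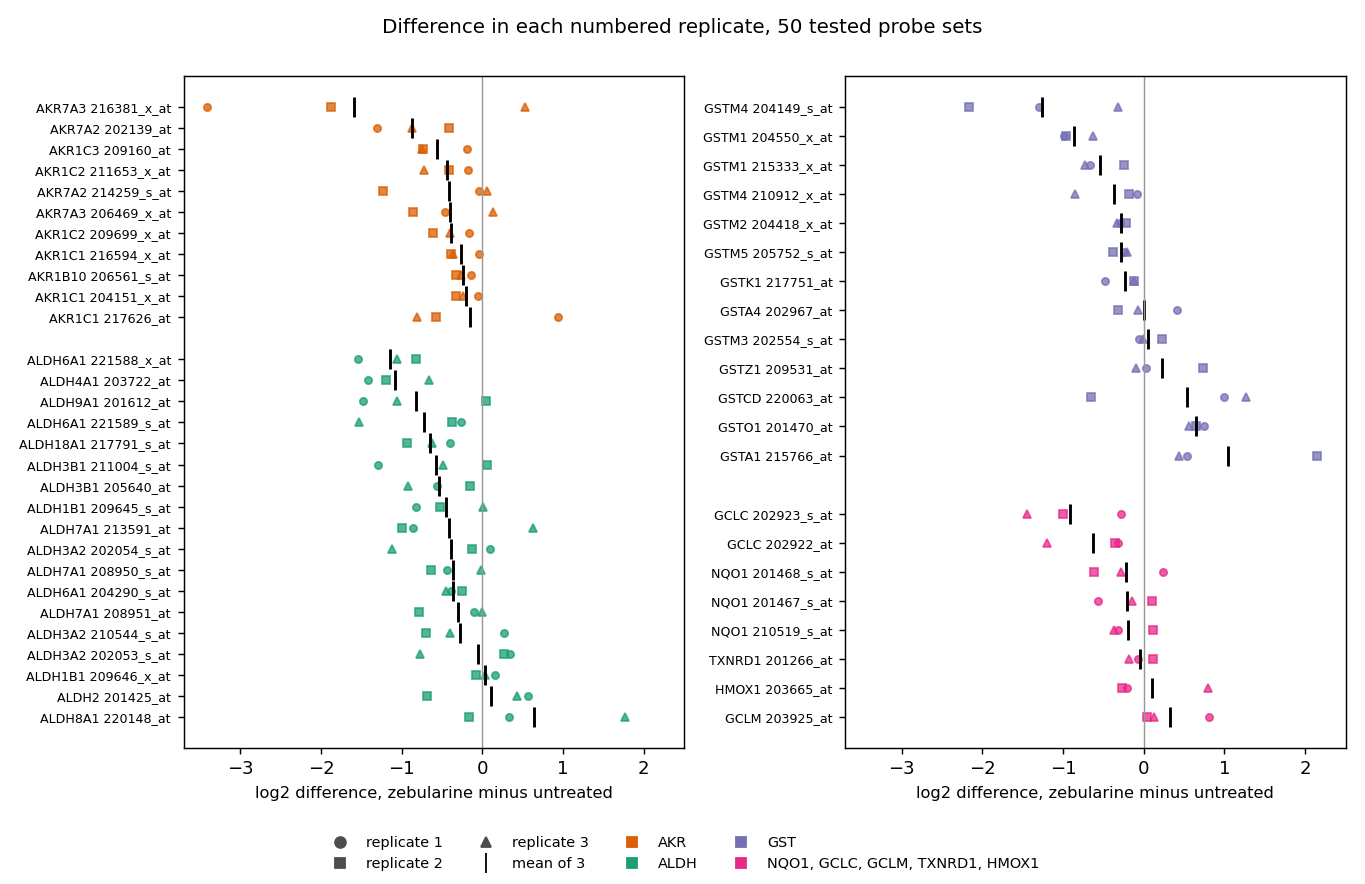
Log2 difference (x axis, zebularine minus untreated) of each of the 50 tested probe sets (rows, by family), with 1 symbol per numbered replicate and a bar at their mean. Bars lie left of 0 for 39 of 50 probe sets, and for GSTO1 the 3 replicates lie close together at 0.56 to 0.75.

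Counted over probe sets, the medians of the 4 families lay between -0.40 and -0.20, and each was below 0 in every replicate. Counted over genes, with 1 probe set each, the median was -0.47 for 10 ALDH genes, -0.39 for 6 AKR genes, 0.0072 for 11 GST genes, of which 6 were above and 5 below 0, and -0.047 for the 5 further genes. The GST and further families were thus lower over probe sets and near 0 over genes. Over 18 ALDH probe sets the median difference was -0.40 (-0.39, -0.45 and -0.46 in replicates 1, 2 and 3), and 8 of 18 were lower in all 3. Over 11 AKR probe sets it was -0.39 (-0.16, -0.58 and -0.36), with 11 of 11 below 0 on average and 7 lower in all 3. The AKR median was -0.098 without untreated replicate 2. Over 13 GST probe sets it was -0.24 (-0.079, -0.21 and -0.12), with 7 lower and 2 higher in all 3, and -0.073 without zebularine replicate 2. Of the GST probe sets, those of the types named _x_at and _s_at can bind related transcripts, and without them the median over the other 6 was 0.38. Over the 8 probe sets of NQO1, GCLC, GCLM, TXNRD1 and HMOX1 it was -0.20 (-0.24, -0.12 and -0.23), and 0.029 over the 4 that are not of those types. Differences between families were not tested.

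**Figure D2:**
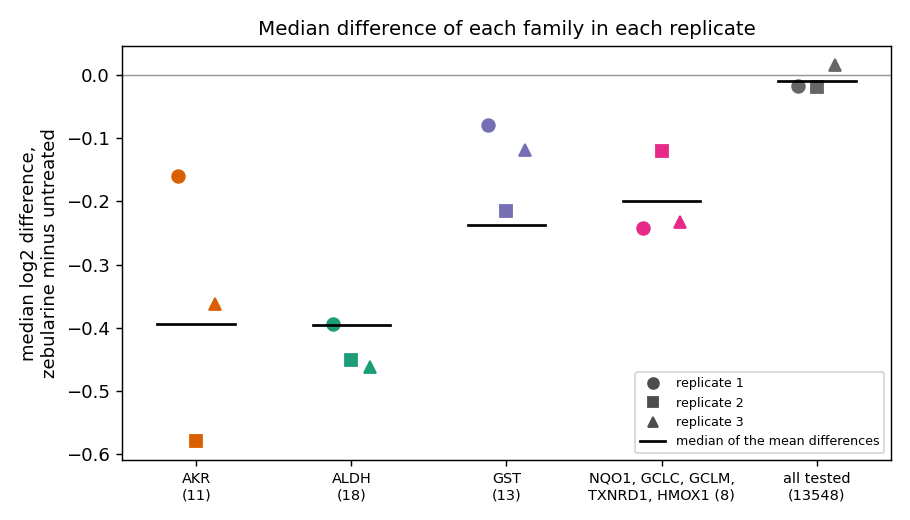
Median log2 difference (y axis, zebularine minus untreated) of each family and of all tested probe sets, by numbered replicate (symbols), with the median of the mean differences as a bar and the number of probe sets in brackets. The 4 families lie below 0 in every replicate, between -0.079 and -0.58, and all tested probe sets lie near 0.

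GSTO1 rose after zebularine in the fit with the replicate block. GSTO1 encodes the omega-class transferase, which reduces dehydroascorbate and methylated arsenic compounds more than it conjugates glutathione. Its probe set 201470_at gave signals of 6887, 7153 and 6611 on the zebularine arrays, against 4085, 4579 and 4466 on the untreated arrays in replicates 1, 2 and 3. Every zebularine signal lay above every untreated signal, and the spread within each group was small. The means were 6884 ± 271 with zebularine and 4377 ± 259 without (SD, n = 3 each), a 1.57-fold rise. The log2 difference was 0.65 ± 0.22 (standard error; limma, adjusted p = 0.251) and with the block 0.65 ± 0.15 (limma, adjusted p = 0.0336). The size hardly moved when arrays were left out, between 0.60 and 0.70, but the blocked call ended without replicate 1 (limma, adjusted p = 0.151) and without replicate 3 (limma, adjusted p = 0.0905), and held without replicate 2 (limma, adjusted p = 0.0435).

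Among the other transferases, the mu class was lower at most of its probe sets. Mu-class enzymes act on epoxides and other electrophiles. Of 7 GSTM probe sets, all tested, 6 were lower in all 3 replicates and none was called with or without the block. The probe set 204149_s_at of GSTM4 gave 109, 101 and 430.5 with zebularine, against 292, 510.5 and 540 without. Replicates 1 and 2 set it apart, while the zebularine signal of replicate 3 lay inside the untreated range. Its log2 difference was -1.26 ± 0.47 (limma adjusted p of 0.282 without and 0.0544 with the block), and without replicate 3 it was -1.73 and called with the block (limma, adjusted p = 0.00803). For GSTM1, 204550_x_at gave 294, 243 and 371 with zebularine, against 599.5, 491 and 584 without. Here the groups did not overlap, and the difference was -0.86 ± 0.27 (limma adjusted p of 0.207 without and 0.0605 with the block). The brighter GSTM1 probe set, 215333_x_at, gave 298, 331.5 and 424 with zebularine, against 483, 394.5 and 713 without, and the groups overlapped. It differed by -0.55 ± 0.29 (limma adjusted p of 0.475 without and 0.213 with the block). The probe set of GSTM2 differed by -0.28, the other of GSTM4 by -0.37 and that of GSTM5 by -0.28. GSTM3 was the exception, at 1256, 2095 and 2141 with zebularine against 1312, 1786 and 2162 without. Its difference of 0.051 ± 0.29 (limma, adjusted p = 0.966) changed sign when single arrays were left out. Mu-class genes are close in sequence and all 7 of these probe sets are of the _x_at or _s_at type, so the single members are uncertain.

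GSTK1, a transferase of mitochondria and peroxisomes, gave 2494, 2999 and 2294 with zebularine, against 3478, 3255 and 2493 without. It was lower in each replicate, but the groups overlapped, and the difference was -0.24 ± 0.24 (limma, adjusted p = 0.733). GSTA1, of the alpha class that is abundant in liver and kidney, had a pair of probe sets that disagreed. Signals of 215766_at were 134, 231 and 103 with zebularine, against 87.1, 39.6 and 71.7 without, with no overlap and a difference of 1.04 ± 0.48 (limma, adjusted p = 0.392). Signals of 203924_at were 17.1, 3.8 and 38.5 with zebularine, against 64.9, 28.1 and 54.8 without, too dim for the test and lower in each replicate. No direction for GSTA1 follows from them. GSTA4 differed by 0.0072, GSTZ1, an enzyme of tyrosine breakdown, by 0.22, and GSTCD by 0.53, each with replicates of opposite sign.

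GSTP1, the pi-class transferase, was near the bottom of the measured range in both groups. The signals of its only probe set, 200824_at, were 51.9, 67.9 and 125 with zebularine, against 75.6, 48.7 and 72.0 without. The value of zebularine replicate 3 was the only 1 above the filter level, so the probe set was not tested. The replicate differences were -0.43, 0.37 and 0.67. The probe sets of GSTA3, GSTT1, GSTT2 and GSTT4 were likewise too dim to test, with the highest single signal at 79.8 for GSTT1.

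The aldo-keto reductases AKR1B10, AKR1C1, AKR1C2 and AKR1C3 gave very bright signals and were lower by small amounts. AKR1B10 reduces retinal and other aldehydes, and AKR1C1, AKR1C2 and AKR1C3 act on steroids and prostaglandins. AKR1C3 (209160_at) gave 20905, 24423 and 12198 with zebularine, against 23791, 40630 and 20471 without. Each replicate was lower with zebularine, but the groups overlapped, and both arrays of replicate 3 gave the lowest signal of their group. Means were 19175 ± 6293 with zebularine and 28297 ± 10809 without (SD, n = 3 each). The log2 difference of -0.56 ± 0.33 (limma, adjusted p = 0.523) passed with the block, at a standard error of 0.13 (limma, adjusted p = 0.0345). That call ended after quantile normalization, at -0.44 (limma, adjusted p = 0.0804 with the block), and without replicate 2 (limma, adjusted p = 0.0896) or replicate 3 (limma, adjusted p = 0.152).

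AKR1B10 (206561_s_at) gave 52168, 49542 and 25270 with zebularine, against 57462, 62289 and 30271 without. These were 74.7% to 88.0% of the highest signal on the zebularine arrays and 85.8% to 97.1% on the untreated arrays, close to the top of each array's scale, and whether these signals were saturated was not tested. The difference was -0.24 ± 0.35 (limma adjusted p of 0.820 without and 0.157 with the block), and 0.093 without zebularine replicate 3. AKR1C1 (204151_x_at) gave 27349, 33494 and 17913 with zebularine, against 28459, 41932 and 21156 without. Every replicate was lower, at -0.057, -0.32 and -0.24 on the log2 scale, and the difference of -0.21 ± 0.31 did not pass (limma, adjusted p = 0.831). It was 0.050 without untreated replicate 2 and 0.045 without zebularine replicate 3. A further AKR1C1 probe set, 216594_x_at, differed by -0.27, and those of AKR1C2 by -0.39 and -0.44. One AKR1C1 probe set of another type, 217626_at, was far dimmer, at 972, 471 and 360 with zebularine and 499, 712 and 641 without, and its replicates had opposite signs. AKR1C1 and AKR1C2 are nearly identical in sequence, so their _x_at probe sets cannot separate them.

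The brightest AKR probe sets lay among probe sets that were lower on zebularine arrays as a class. Over 317 tested probe sets with a mean signal of at least 10000 the median difference was -0.13 (-0.15, -0.087 and -0.18 in replicates 1, 2 and 3), and 74.1% were below 0. All 9 members in that class were below 0, with a median of -0.24. After quantile normalization, which makes the distributions of all arrays equal, the class median was -0.0066 and that of the 9 members -0.14, and AKR1C1 (204151_x_at) was at -0.025 and AKR1B10 at -0.12.

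**Figure D3:**
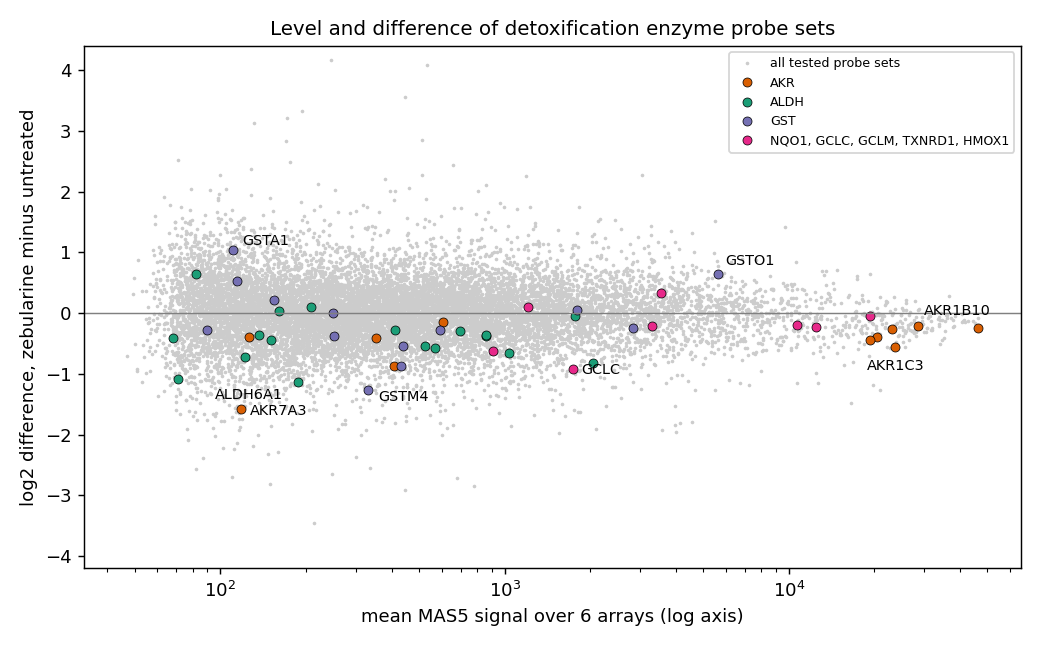
Mean signal over 6 arrays (x axis, log scale) and log2 difference (y axis, zebularine minus untreated) of the 50 tested member probe sets, coloured by family, over all 13548 tested probe sets in grey. The bright AKR1B10 and AKR1C probe sets at the right lie slightly below 0, as 74.1% of the 317 brightest do, while GSTO1 lies above 0 at 0.65.

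AKR1C4, which reduces steroids in liver, was dim on all zebularine arrays and on untreated replicate 3. Its probe set 210558_at gave 24.4, 7.5 and 13.2 with zebularine, against 156, 197 and 46.2 without. The groups did not overlap, but only untreated replicates 1 and 2 passed the filter level, and the probe set was not tested. Its log2 difference of -2.11 is given as a description. AKR7A2, an aldehyde reductase that acts on succinic semialdehyde, differed by more than any tested AKR1 probe set, though this contrast was not itself tested. The probe set 202139_at gave 225, 354 and 285 with zebularine, against 581, 475 and 537 without. All zebularine signals lay below all untreated signals, and the difference was -0.87 ± 0.27 (limma adjusted p of 0.212 without and 0.0794 with the block). Without replicate 2 it was -1.09 and called with the block (limma, adjusted p = 0.0277). Its other probe set, 214259_s_at, differed by -0.41, with -0.046, -1.23 and 0.058 in replicates 1, 2 and 3. AKR7A3 differed by -0.39 and -1.58 at its probe sets, both with a higher zebularine signal in replicate 3. AKR1D1, a steroid reductase of bile acid synthesis, had no signal above 34.4.

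No aldehyde dehydrogenase was called with or without the block, and of 10 tested genes 7 had a mean difference below 0 and 3 above. ALDH4A1, which passed the filter through the untreated arrays alone, is among the 7. ALDH18A1 makes the precursor of proline from glutamate. It gave 870, 762.5 and 763 with zebularine, against 1154, 1464 and 1186 without. The groups did not overlap, and the difference was -0.65 ± 0.24 (limma adjusted p of 0.282 without and 0.111 with the block). ALDH6A1, which acts in the breakdown of valine, gave 111, 87.2 and 126 with zebularine at 221588_x_at, against 353, 166 and 281 without. All zebularine signals again lay below the untreated ones, and the difference was -1.14 ± 0.37 (limma adjusted p of 0.225 without and 0.0661 with the block). Without replicate 2 it was -1.30 and called with the block (limma, adjusted p = 0.0327). Further ALDH6A1 probe sets that were tested differed by -0.36 and -0.72, each lower in all 3 replicates, and those too dim to test by 0.031 and -0.23. ALDH4A1, which degrades the same proline precursor, gave 31.5, 27.9 and 62.9 with zebularine at 203722_at, against 111, 84.7 and 109 without. No zebularine signal reached the filter level, and the difference of -1.09 is given as a description. The other ALDH4A1 probe set, 211552_s_at, was too dim to test and was higher in replicates 1 and 2 and lower in replicate 3. It gave 25.7, 42.7 and 38.6 with zebularine, against 11.7, 26.6 and 141 without. ALDH7A1, an enzyme of lysine breakdown, differed by -0.36, -0.30 and -0.41 at its 3 probe sets (limma, adjusted p = 0.586, 0.694 and 0.815). In replicate 3 the same probe sets differed by -0.02, -0.0078 and 0.63.

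ALDH9A1, which acts on the aldehyde precursor of carnitine, gave 1051.5, 1544 and 1710.2 with zebularine, against 2956, 1489 and 3567 without. Replicates 1 and 3 were far lower with zebularine and replicate 2 was not, at 0.052. The difference was -0.83 ± 0.33 (limma adjusted p of 0.322 without and 0.0999 with the block), and without replicate 2 it was -1.27 and called with the block (limma, adjusted p = 0.0037). ALDH3A2, which oxidises fatty aldehydes, gave 2094, 2412 and 909.8 with zebularine, against 1641, 1995 and 1566 without. Replicates 1 and 2 were higher and replicate 3 lower, for a difference of -0.050 ± 0.34 (limma, adjusted p = 0.971) that became 0.31 without replicate 3. Its other probe sets differed by -0.38 and -0.27, also with replicates of opposite sign. ALDH3B1 differed by -0.57 and -0.54 at its probe sets, and the first was at 0.053 in replicate 2. The mitochondrial enzymes ALDH2, which clears acetaldehyde, and ALDH1B1 differed by 0.11 and 0.040, and ALDH8A1 by 0.64, all with replicates of opposite sign. The other ALDH1B1 probe set differed by -0.45. ALDH8A1 acts in tryptophan breakdown. ALDH1L1, ALDH3A1, ALDH3B2 and ALDH5A1 had no tested probe set. ALDH3A1 gave 42.7, 113 and 99.4 with zebularine, against 18, 76.9 and 10.2 without, higher in each replicate with overlapping groups. For ALDH3B2, 204941_s_at gave 58.4, 22.5 and 12.8 with zebularine, against 4.4, 6.1 and 8 without, with no overlap. Its other probe set differed by -0.49. Those of ALDH1L1 differed by -0.46 and 0.41 and those of ALDH5A1 by 0.40 and -0.27. Each of these had replicates of opposite sign.

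The subunits of glutamate-cysteine ligase had mean differences of opposite sign, neither of which passed the test. GCLC, the catalytic subunit, gave 1985, 948.5 and 834 with zebularine at 202923_s_at, against 2415, 1921.5 and 2306.5 without. It was lower in each replicate, most in replicate 3, and zebularine replicate 1 overlapped the untreated range. The difference was -0.91 ± 0.32 (limma adjusted p of 0.257 without and 0.0506 with the block), and it was called after quantile normalization with the block (limma, adjusted p = 0.0432). The other GCLC probe set, 202922_at, gave 982.5, 688 and 505 with zebularine, against 1226.5, 885 and 1186 without, a difference of -0.62 ± 0.29 (limma, adjusted p = 0.397). GCLM, the modifier subunit, gave 2760.5, 4608 and 4107 with zebularine, against 1565, 4499.7 and 3756 without. It was higher in each replicate, by 0.81, 0.034 and 0.13 on the log2 scale, so that replicate 1 carried most of the mean of 0.32 ± 0.36 (limma, adjusted p = 0.761), which was -0.14 without untreated replicate 1. The difference between the subunits was not tested.

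NQO1, TXNRD1 and HMOX1 were not called with or without the block. NQO1 gave 14598.5, 10234.5 and 9769 with zebularine at 201468_s_at, against 12399, 15662 and 11875 without. The groups overlapped, and its 3 probe sets differed by -0.22, -0.19 and -0.20, each with replicates of opposite sign (limma, adjusted p = 0.771, 0.778 and 0.777). TXNRD1 gave 21214, 23881 and 12432 with zebularine, against 22276, 22050.3 and 14139.5 without, a difference of -0.047 ± 0.30 (limma, adjusted p = 0.970) that was 0.11 after quantile normalization. HMOX1 gave 1097, 1014 and 1696 with zebularine, against 1266, 1230.5 and 974 without. Its replicates 1 and 2 were lower and replicate 3 higher, and the difference was 0.10 ± 0.27 (limma, adjusted p = 0.907).

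**Figure D4:**
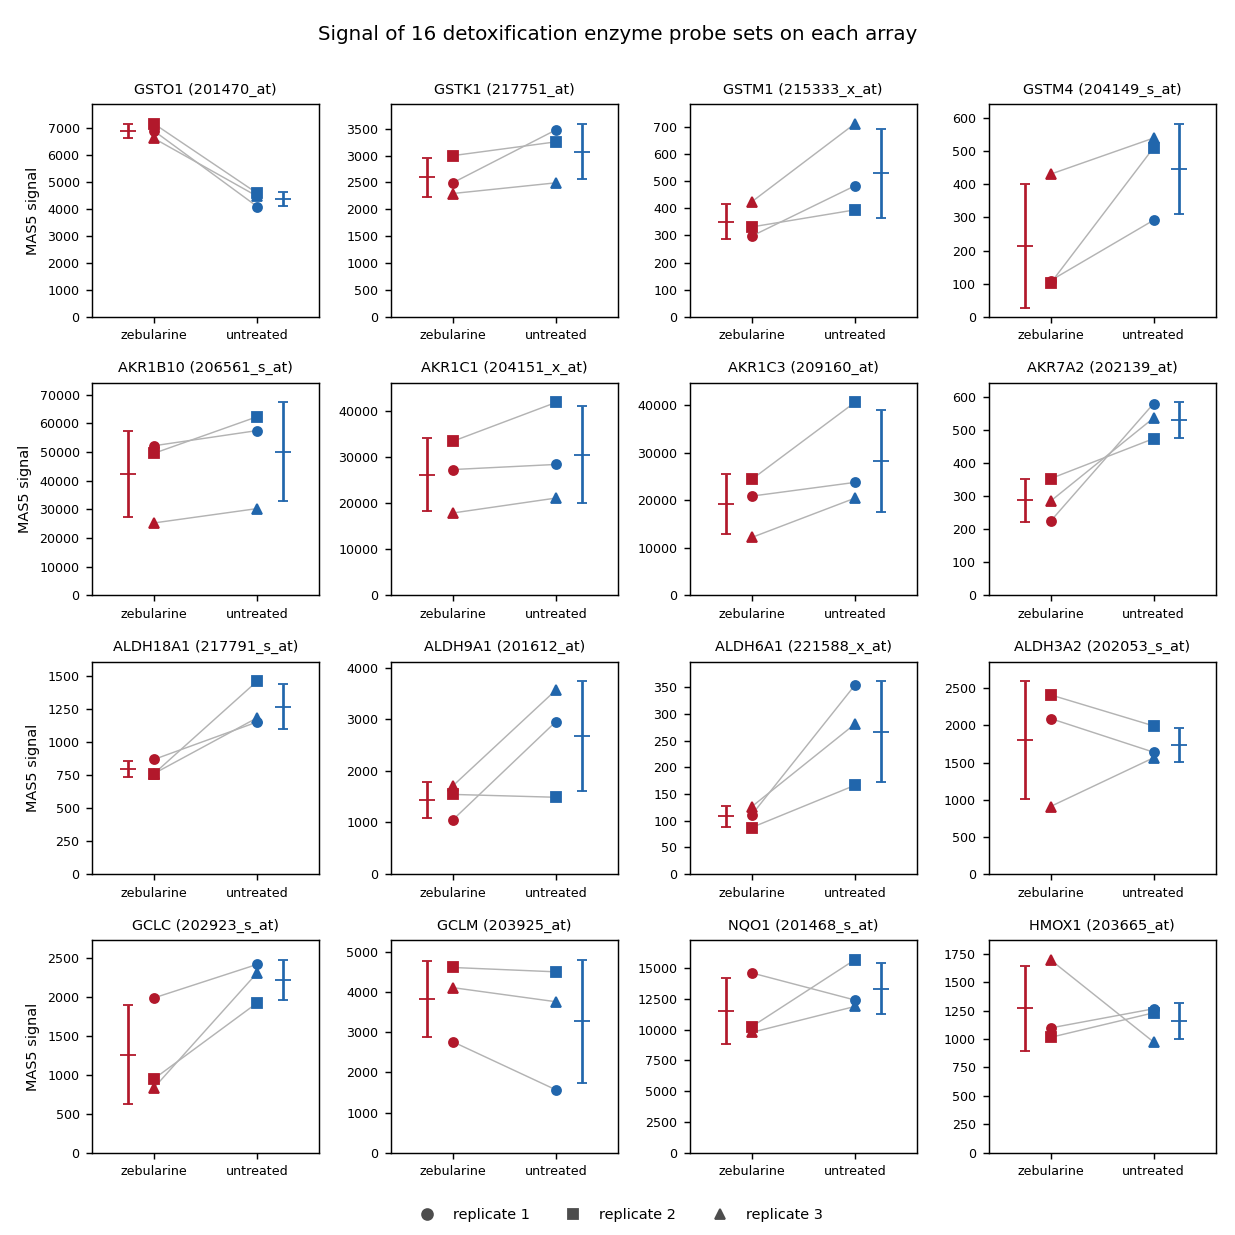
MAS5 signal (y axis, linear from 0) of the brightest tested probe set of 16 member genes on each array, zebularine left and untreated right, with lines joining arrays of 1 replicate number and mean ± SD (n = 3) beside the points. All 3 lines of GSTO1 slope down towards the untreated arrays, those of AKR1C3 and GCLC slope up, and those of NQO1, HMOX1 and ALDH3A2 slope both ways.

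Lists of other genes of the same pathways had medians below 0, and some of their genes fell. The lists were chosen with earlier results of these data known, so their shares of called genes are a description. Of their genes, FTL, PRDX1, SOD1, TALDO1, TKT and TXN had mean signals of at least 10000. In that class 74.1% of all tested probe sets were below 0. Of 30 further genes of the NRF2 pathway, 25 were tested, 1 fell and 0 rose in limma without the block (0.295% and 0.325% of all probe sets), and with it 2 fell (8%, against 2.32% of all probe sets) and 0 rose (against 1.91%). The median difference was -0.24 (-0.033, -0.14 and -0.44 in replicates 1, 2 and 3). The gene that fell was TKT, the transketolase of the pentose phosphate pathway that regenerates NADPH, at 7389, 5898 and 6617 with zebularine, against 13926.5, 13537.5 and 16690.2 without. Its groups lay far apart, with a difference of -1.15 ± 0.23 (limma adjusted p of 0.0482 without and 0.00208 with the block). Without the block the call of TKT ended in every fit that left out an array or a replicate, and also without the filter, without the trend or with a pseudocount of 1, and with it TKT was called in all 5 fits tried. PGD of the same pathway gave 2697.6, 3235 and 2505.8 with zebularine, against 3604, 5068.5 and 6161 without. Its groups did not overlap, and it differed by -0.78 ± 0.26 (limma adjusted p of 0.240 without and 0.0445 with the block). The call of PGD ended without replicate 1 or 3. Outside the rule for named genes, NFE2L2 itself gave 4524.6, 4660.3 and 3727 with zebularine, against 6472, 5295 and 6259.6 without. It did not overlap, and the difference of -0.48 ± 0.23 did not pass (limma adjusted p of 0.421 without and 0.126 with the block). KEAP1, also outside the rule, differed by 0.20 ± 0.26 (limma, adjusted p = 0.797). The list did not move as 1, since 19 of its tested genes had a mean difference below 0 and 6 above. CBR3, likewise outside the rule, gave 552.5, 858.9 and 832.7 with zebularine, against 328.3, 532.4 and 394.5 without. Its groups did not overlap, and it was higher by 0.81 ± 0.29 (limma adjusted p of 0.263 without and 0.0657 with the block).

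Of 33 further glutathione and peroxide enzyme genes, 25 were tested, none was called without the block and 3 fell with it (12%, against 2.32% of all probe sets). The median difference was -0.21 (-0.35, -0.21 and -0.41 in replicates 1, 2 and 3). CAT, the catalase, gave 2282, 2133 and 3023.6 with zebularine, against 4091, 5337 and 6196 without. The groups did not overlap, and the difference was -1.06 ± 0.26 (limma adjusted p of 0.0937 without and 0.00708 with the block), called in all 5 fits with the block. GPX3, a secreted glutathione peroxidase made by the kidney, gave 3490.5, 2789.6 and 4137 with zebularine, against 6070.1, 4170.4 and 9232 without. All zebularine signals lay below all untreated signals, the nearest being 4137 and 4170.4, and it differed by -0.84 ± 0.30 (limma adjusted p of 0.268 without and 0.0192 with the block). PRDX2, a peroxiredoxin, gave 1616.5, 2156 and 2205 with zebularine, against 3332, 3357 and 3163 without. Its groups lay apart, and it differed by -0.73 ± 0.24 (limma adjusted p of 0.226 without and 0.0487 with the block). The calls of GPX3 and PRDX2 each held in 3 of the 5 fits with the block. Of 37 further carbonyl, alcohol and conjugating enzyme genes, 19 were tested and none was called with or without the block, at a median of -0.12 (-0.32, -0.23 and -0.35 in replicates 1, 2 and 3). Its brightest members, the reductase gene CYB5R3 and the sulfotransferase gene SULT1A1, differed by -0.27 ± 0.26 and -0.078 ± 0.26.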

How the data were processed

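Expression was measured on 6 Affymetrix arrays, 1 per culture. The authors deposited intensities on a linear scale, 1 per probe set, and MAS5 is named in the submitters' processing notes (version not given in the sources used here). That method removes background and scales every array, and nothing further was normalized. Intensities were taken as log2(signal + 16.34), the pseudocount being the median divided by 8. Leaving aside 62 control probe sets of 22277, 13548 reached a signal of 78.5, the 40th percentile, on at least 3 of 6 arrays and were tested. Dim MAS5 signals are noisy, detection calls were not used, and precision is limited by having 6 arrays.

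The groups were set against each other in limma 3.58.1 (R 4.3.3; lmFit and eBayes, trend on, two-sided), with Benjamini-Hochberg adjustment over 13548 probe sets. The labels' descriptions of same-numbered arrays share their first part, and their deviations from the group means correlated at 0.323, 0.211 and 0.272, each the highest for its number. The block is therefore printed where it changes a call, and also for some genes whose call it did not change. No pair of arrays shared more than 0.198% of its values, and the p-values measure the spread between cultures of 1 line.

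A gene was represented by its tested probe set with the highest mean signal. Symbols came from the platform annotation, in which 19070 probe sets had 1 symbol, 1043 several and 2164 none, and all 68 member symbols matched a RefSeq table. By the naming rule, signals on every array are given for member genes called without or with the block, for NQO1, GCLC, GCLM, TXNRD1, HMOX1 and GSTP1, for the 3 brightest genes of each family, and for its largest rise and fall with 3 replicates of 1 sign. From each list of other genes the rule names up to 4 called members or else the 2 brightest. The others were chosen after their values were seen. Members, lists and tests were chosen with earlier results of these data known. The fits were tested on simulated data, but no outcome of that is given here. Alternatives covered the block, pseudocount, filter, quantile normalization, trend, probe set type and leaving out arrays. Python 3.11.15 and matplotlib 3.10.9 drew the figures.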

Additional observations from a re-analysis of the deposited data

How the results depend on the processing

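The count of called members was 0 in every fit without the block that was tried. It was 2 with the replicate block, 3 with the block and quantile normalization, and 0 to 4 over all fits that left out arrays, the fits with the block included; the fits that combine the block with another choice were chosen after seeing the data. Over all tested probe sets the count of 84 became 573 with the replicate block, 42 without the filter, 53 with a pseudocount of 1, 6 without the trend and 0 to 96 when arrays were left out, all without the block except the 573. The ALDH median of -0.40 became -0.33 without the filter, -0.45 with a pseudocount of 1 and -0.34 with the median divided by 2, and ran from -0.48 to -0.36 when arrays were left out. When arrays were left out the AKR median ran from -0.57 to -0.098, the GST median from -0.23 to -0.073 and that of the 5 further genes from -0.24 to -0.083. Without _x_at and _s_at probe sets the GST median was 0.38 and that of the further genes 0.029. After quantile normalization the median over all 8 probe sets of the further genes was -0.12.

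Signs were followed for 41 single genes, of which 32 were tested members. The rest came from the lists of other genes, namely CAT, CYB5R3, GPX3, KEAP1, NFE2L2, PGD, PRDX2, SULT1A1 and TKT. Of these, all but KEAP1 and SULT1A1 kept their sign, and CAT, GPX3, PGD, PRDX2 and TKT were named because they were called. Over all 41 genes, 25 kept their sign under all alternatives. Leaving out arrays changed the sign of the other 16, none of them called, over these ranges: AKR1B10 -0.57 to 0.093, AKR1C1 -0.44 to 0.050, ALDH1B1 -0.18 to 0.31, ALDH2 -0.18 to 0.50, ALDH3A2 -0.32 to 0.38, ALDH8A1 -0.094 to 1.11, GCLM -0.14 to 0.62, GSTA4 -0.19 to 0.25, GSTCD -0.018 to 1.13, GSTM3 -0.14 to 0.30, GSTM5 -0.74 to 0.23, GSTZ1 -0.036 to 0.38, HMOX1 -0.24 to 0.29, KEAP1 -0.00085 to 0.33, SULT1A1 -0.31 to 0.14 and TXNRD1 -0.26 to 0.24. ALDH1B1 was at -0.20 as the mean of its probe sets and TXNRD1 at 0.11 after quantile normalization, with or without the block. With the block and without replicate 1, ALDH1B1 was at -0.018 and ALDH2 at -0.13; without replicate 2, GSTM3 was at -0.038 and GSTZ1 at -0.036; without replicate 3, ALDH2 was at -0.058 and TXNRD1 at 0.022. The cause of these changes was not tested. Signal limits the members as well, since 18 of 68 probe sets were too dim to test. The blocked adjusted p of GSTO1 ran from 0.0271 to 0.151 and that of AKR1C3 from 0.0143 to 0.152.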
